A study of Mus musculus with 2 samples.

Results

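The lipases, transfer proteins and the angiopoietin-like inhibitor described here are 7 genes, Lpl, Lipc, Lipg, Lcat, Pltp, Mttp and Angptl4, of the 36808 genes in the authors' deposited table. They were taken by symbol, and each symbol matched 1 gene. RNA had been sequenced from primary hepatocytes of C57Bl6 mice. Both groups were kept in William E medium to which FBS, insulin and dexamethasone had been added. One group received 1 µM GW3965, which activates the liver X receptors (LXR, nuclear receptors for oxysterols), and the other DMSO as control. Each group had 1 library, so no value below has a replicate error, and no test of the conditions could be made. The second column of the table bears the name GL. It was taken as the GW3965 library because the labels leave no other partner for DMSO, and that reading is not certain. The labels do not say how many mice gave the cells or how long the treatment lasted.

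Lipoproteins are built, unloaded and remodelled by a small set of proteins. MTTP loads lipid onto apolipoprotein B in the endoplasmic reticulum of hepatocytes. Lipoprotein lipase (LPL) then hydrolyses triglyceride in the circulation, hepatic lipase (LIPC) acts on remnants and HDL, and endothelial lipase (LIPG) acts mainly on HDL phospholipid. LCAT esterifies the cholesterol of HDL, and PLTP moves phospholipid between particles. ANGPTL4 inhibits LPL, and its relative ANGPTL8 takes part in that inhibition. Lpl and Pltp are described as LXR targets in liver and macrophages, and Angptl4 is known to respond to PPARs, glucocorticoids and hypoxia.

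A promoter window of Lipc and that of Pltp are shown, the first because it holds the core motif bound by many nuclear receptors and the other because Pltp is described as an LXR target. RefSeq windows on GRCm38.p6 were matched for 4 of the 7 genes, Lcat, Lipc, Mttp and Pltp, in 5 windows of 250 bases before an annotated start. No window was matched for Lpl, Lipg and Angptl4. The core AGGTCA, or TGACCT on the other strand, occurred in 1 of the 5 windows, against 14.0% of 32851 windows of all genes. In 1 window of Lipc it began 88 and 76 bases before the start, once on each strand, and both copies are in capitals below. The other Lipc window, at chr9:70952222-70952471 before another annotated start, held no copy and is not printed. The direct repeat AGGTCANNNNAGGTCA bound by LXR, searched on both strands, was in 0 of the 5 windows and in 0.0152% of all windows. Each such repeat holds the core motif as well, and a missing match says only that these letters are not in the window. The Lipc window shown lies at chr9:70934809-70935058 on the minus strand, and that of Pltp at chr2:164857709-164857958 on the minus strand, both printed 5′ to 3′.
Lipc: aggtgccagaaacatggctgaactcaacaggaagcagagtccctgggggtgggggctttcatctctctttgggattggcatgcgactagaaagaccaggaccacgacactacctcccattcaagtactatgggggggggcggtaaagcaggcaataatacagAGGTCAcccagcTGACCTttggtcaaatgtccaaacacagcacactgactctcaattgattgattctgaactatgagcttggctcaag
Pltp: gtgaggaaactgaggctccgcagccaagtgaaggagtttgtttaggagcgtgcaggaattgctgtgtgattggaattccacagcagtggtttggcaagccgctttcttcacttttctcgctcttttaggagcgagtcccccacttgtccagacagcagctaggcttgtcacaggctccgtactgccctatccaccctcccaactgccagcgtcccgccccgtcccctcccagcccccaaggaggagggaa

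The members at the minimum differed by less than 1.5-fold between the libraries. Levels are FPKM, fragment numbers scaled to transcript length and library size. A ratio below is the log2 of GW3965 over DMSO after 1 was added to each FPKM, which makes the differences of low genes look smaller. Of the 6 members that reached 1 FPKM in a library, the minimum used here, 0 passed 1.5-fold upward and 0 passed it downward in GW3965. Among all 11796 genes at that minimum, 1.02% passed 1.5-fold upward and 1.33% downward, which makes 2.35% in both directions. A count of 0 among 6 is therefore near the background and says nothing particular about these genes. The same holds for counts of 0 in the short gene lists below. Their ratios ran from -0.30 for Mttp to 0.32 for Lpl, with 3 above and 3 below 0 and a median of -0.02, beside 0.01 for all genes. Of the 7 genes, 0 were called in the authors' deposited table, against 0.285% of the 15090 genes they tested, and every member had q = 0.999957.

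**Figure D1:**
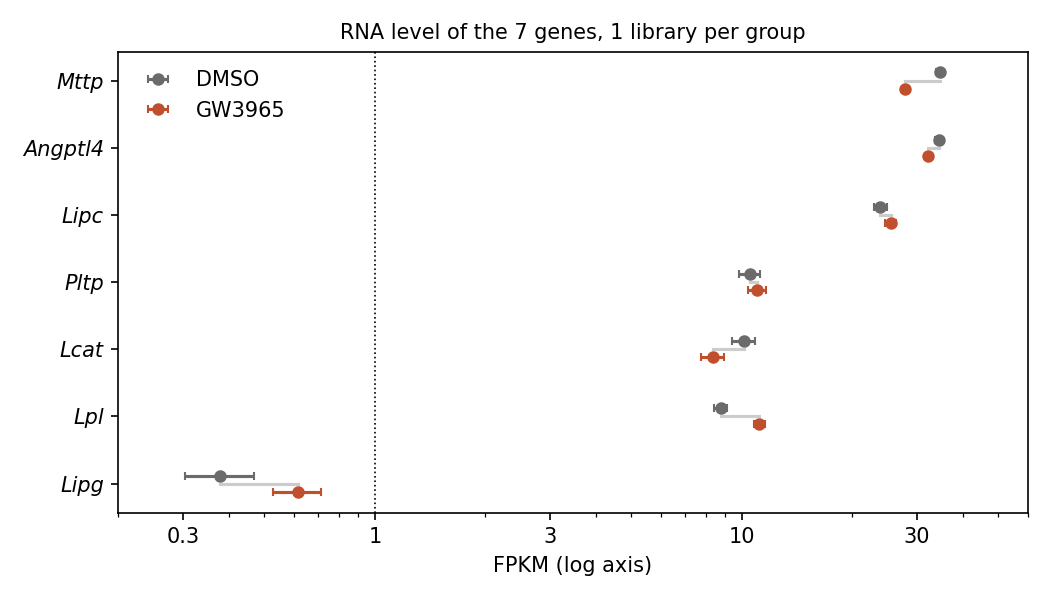
FPKM of each gene (log axis) in the DMSO library (grey) and the GW3965 library (orange), with bars for exact 95% intervals that cover counting error only. Mttp and Angptl4 lie highest in both libraries, Lpl, Lcat and Pltp near 10, and Lipg lies left of the dotted line at an FPKM of 1 in both libraries.

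Depth was estimated from the spacing of low values, at 63.0 × 10⁶ fragments for DMSO and 78.3 × 10⁶ for GW3965. These estimates turn an FPKM into an estimated read number, from which the exact 95% intervals below were computed. The intervals cover counting error only. They leave out differences between cultures and reads shared between genes, and in RNA from a whole culture fewer cells of a type and less RNA per cell cannot be told apart. In the DMSO library the order of levels, which are per length, was Mttp, Angptl4, Lipc, Pltp, Lcat, Lpl and Lipg. Mttp at 34.6 (33.8 to 35.4) and Angptl4 at 34.4 (33.6 to 35.2) did not differ beyond counting error there, nor did Pltp and Lcat. In the GW3965 library Angptl4 led with 32.2 (31.5 to 32.9), ahead of Mttp with 27.9 (27.3 to 28.5) and Lipc. Lpl at 11.2 (10.8 to 11.5) and Pltp at 11.0 (10.4 to 11.6) did not differ beyond counting error there, and Lcat stood below both.

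Markers of several liver cell types were present besides those of hepatocytes. Of 7 measured hepatocyte markers all reached the minimum, 4 above and 3 below 0, with a median ratio of 0.07 and a summed FPKM of 3536 in DMSO and 3097 in GW3965. Serpina1a stood lowest at -0.46, Fgb, which makes up most of the sum, at -0.30 and Cps1 highest at 0.31. Alb and Trf carried the table's mark for too many fragments and were not used. All 8 endothelial markers reached the minimum, 6 above and 2 below 0, with a median of 0.19 and sums of 139 and 163. They did not share a direction: Tek stood highest at 0.38 and Cdh5 at 0.30, while Clec4g, at 2.14 FPKM in DMSO and 0.996 in GW3965 (-0.66), was the 1 marker of the list past 1.5-fold. The stellate and fibroblast list had 5 of 6 genes above 0, a median of 0.18 and sums of 83.0 and 88.0. The macrophage list had 2 of 6 genes above 0, a median of -0.12 and sums of 207 and 211. Cd68 stood highest there at 0.32 and Lyz2 lowest at -0.31. The cholangiocyte list, with 3 of 5 genes at the minimum, had a median of 0.07. Of the adipocyte markers Cfd was listed at 0 in both libraries, Adipoq at 0 and 0.0112, and Plin1 at 0.00899 and 0, while Fabp4, which other cells also make, was at 20.7 and 29.4.

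Among the lipases, Lpl had the highest ratio of the members. Lpl (ENSMUSG00000015568, chromosome 8, 71404390 to 71431347, mm9) stood at 8.75 FPKM in DMSO and at 11.2 in GW3965. The GW3965 library was thus 1.28-fold higher, with a counting interval of 1.21 to 1.35. The ratio of 0.32 ranked 475 from the top of 11796 genes, so 4.02% of genes stood higher. The authors' deposited table gives Lpl p = 0.132. Macrophages and other cells outside the hepatocyte lineage make Lpl too. The medians of the endothelial and stellate lists lay above 0 and that of the macrophage list below. Each of these lists had genes on both sides of 0. Of 6 macrophage genes at the minimum, 4 lay below 0 and 2 above. Those above were Cd68, with 74.9 FPKM in DMSO and 93.9 in GW3965 (0.32), and Clec4f (0.04). The part of these cell types in the Lpl value was not tested. By the rule for likeness, the 3 protein-coding genes nearest to Lpl in both levels, by distance of log2(FPKM + 1) over the 2 libraries, were Gdpd1, Plau and Sh3pxd2a. Gdpd1 had 8.65 and 11.1 FPKM, Plau 8.50 and 10.9, and Sh3pxd2a 8.89 and 10.7. With 2 libraries this likeness is one of level only.

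Lipc, the lipase that hepatocytes make themselves (ENSMUSG00000032207, chromosome 9, 70645936 to 70800033, mm9), had 23.8 FPKM in DMSO and 25.4 in GW3965. It was 1.07-fold higher in GW3965 (1.01 to 1.13), a ratio of 0.09, with p = 0.620 in the authors' deposited table. Its level was the third among the 7 genes in both libraries.

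Lipg, named for its endothelial source (ENSMUSG00000053846, chromosome 18, 75098976 to 75120917, mm9), stood at 0.379 FPKM in DMSO and at 0.617 in GW3965, under the minimum of 1. These levels stood for about 87 and 175 estimated reads. Without a pseudocount GW3965 was 1.63-fold higher (1.24 to 2.12), the largest relative difference of the 7 genes, whereas the ratio with the pseudocount was 0.23. The authors' deposited table gives Lipg p = 0.0629, its lowest p among the members, without a call. The endothelial list had a summed FPKM of 139 in DMSO and 163 in GW3965, with Clec4g in the other direction. The part of endothelial cells in the Lipg value was not tested.

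Apart from Pla1a, the other genes of the pancreatic lipase family were listed at or near 0. Pla1a, a phospholipase of phosphatidylserine, stood at 44.1 FPKM in DMSO and at 42.3 in GW3965 (-0.06), the highest level in the family. Pnlip, Pnliprp1 and Lipi were listed at 0 in both libraries. Liph stood at 0.0178 and 0.0323 FPKM and Pnliprp2 at 0.0224 and 0.0631, too few reads for a ratio. Lpl, Lipc and Pla1a were thus the 3 of 9 family genes that reached the minimum, and 0 of these 3 passed 1.5-fold.

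**Figure D2:**
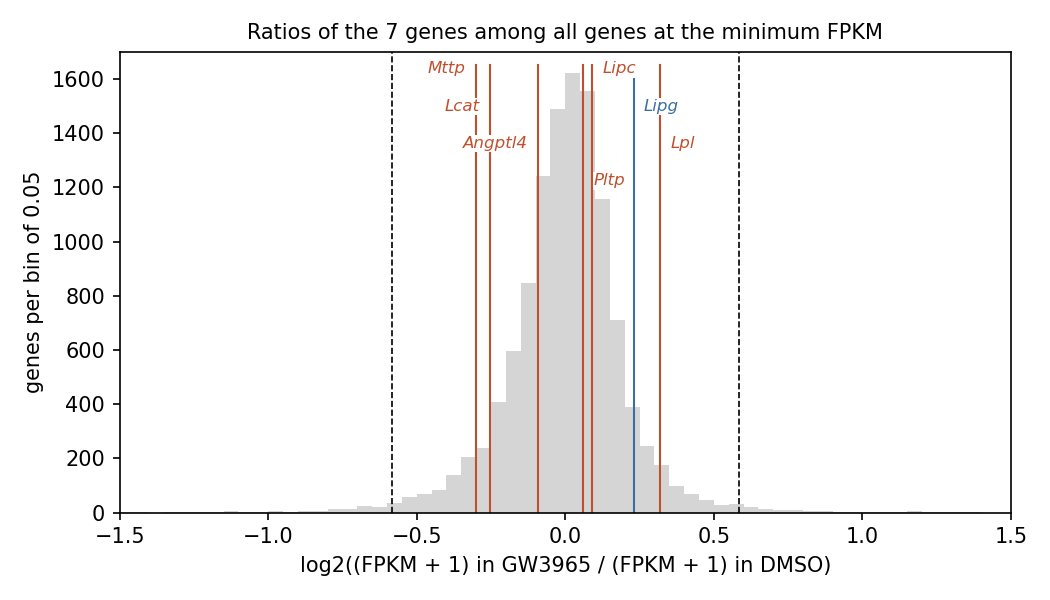
Number of genes (vertical axis) in bins of 0.05 of the log2 ratio of GW3965 to DMSO (horizontal axis), for all genes at the minimum, with 1 vertical line per member and dashed lines at 1.5-fold. The axis stops at 1.5 on either side, which leaves out 35 lower and 19 higher genes. All 7 lines lie between the dashed lines, from Mttp at -0.30 to Lpl at 0.32, and Lipg (blue) is under the minimum.

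Mttp, the gene of VLDL assembly, had the lowest ratio of the 7. Mttp (ENSMUSG00000028158, chromosome 3, 137752819 to 137806352, mm9) stood at 34.6 FPKM in DMSO and at 27.9 in GW3965. DMSO was 1.24-fold higher, with a counting interval of 1.20 to 1.28, and 6.20% of all genes had a lower ratio than its -0.30. The authors' deposited table gives Mttp p = 0.0858. The nearest genes in both levels were Gpd1 with 34.8 and 27.0 FPKM, Mpeg1 with 33.5 and 28.2 and Hist1h1c with 33.9 and 28.8.

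The partners of Mttp in VLDL assembly and secretion held 10 genes at the minimum, of which 5 lay above and 5 below 0 and 0 passed 1.5-fold. Their median was -0.03. Apob, the structural protein of VLDL, stood at 244 FPKM in DMSO and at 248 in GW3965 (0.03), and P4hb, the protein disulfide isomerase that pairs with MTTP, had 358 and 341 (-0.07). The 4 largest ratios in size were all negative. Sort1, a sorting receptor, had 2.93 and 2.09 FPKM (-0.35) and Tm6sf2, which promotes the lipidation of VLDL, had 3.46 and 2.51 (-0.35). Sar1b, a GTPase of the vesicles that carry VLDL out of the endoplasmic reticulum, stood at -0.16 and Cideb, a lipid droplet protein that aids VLDL lipidation, at -0.15. Hnf4a, whose factor is known to act on Mttp, had 49.4 and 37.4 FPKM (-0.39). It was the lowest of 11 listed transcription factors of the members, of which 6 lay above and 5 below 0, with a median of 0.04. The highest of the 11 was Foxo1, with 4.57 FPKM in DMSO and 5.73 in GW3965 (0.27). The part of Hnf4a in the Mttp value was not tested.

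Lcat, whose protein esterifies HDL cholesterol, and Pltp, whose protein moves phospholipid between particles, had similar levels. The ratio of Lcat was negative and that of Pltp near 0. Lcat (ENSMUSG00000035237, chromosome 8, 108458233 to 108489974, mm9) stood at 10.1 FPKM in DMSO and at 8.32 in GW3965. DMSO was 1.22-fold higher (1.10 to 1.35), a ratio of -0.25, with p = 0.725 in the authors' deposited table. Pltp (ENSMUSG00000017754, chromosome 2, 164656232 to 164683211, mm9) had 10.5 and 11.0 FPKM, a ratio of 0.06. Its counting interval of 0.961 to 1.14 for the FPKM ratio included 1, and the authors' deposited table gives p = 0.953.

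Both loci are shared in the table, that of Lcat by 4 genes and that of Pltp by 3. Slc12a4, at 45.4 FPKM in DMSO and 49.7 in GW3965 (0.13), and Psmb10, at 35.9 and 28.4 (-0.33), share the locus of Lcat. However, no exon of Lcat overlaps an exon of another gene in the GENCODE M21 annotation of GRCm38. Pltp differs in this. Of its 2562 exonic bases, 495 (19.3%) also belong to exons of Ctsa on the opposite strand, and these bases make up between 22.2% and 31.4% of the 3 coding transcripts that carry them. Ctsa, a lysosomal carboxypeptidase, had 136 FPKM in DMSO and 129 in GW3965 (-0.08), far above Pltp. Strand handling in the authors' counting is not given in the sources used here, so reads over these bases cannot be told apart, and the Pltp value is uncertain. Mttp overlaps Trmt10a, listed as Rg9mtd2, and Gm43691 in the same annotation, over 9.49% of its exonic bases. Its coding transcripts share between 3.33% and 4.30% of their bases, with Gm43691 alone, and in the table its locus holds no other gene.

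**Figure D3:**
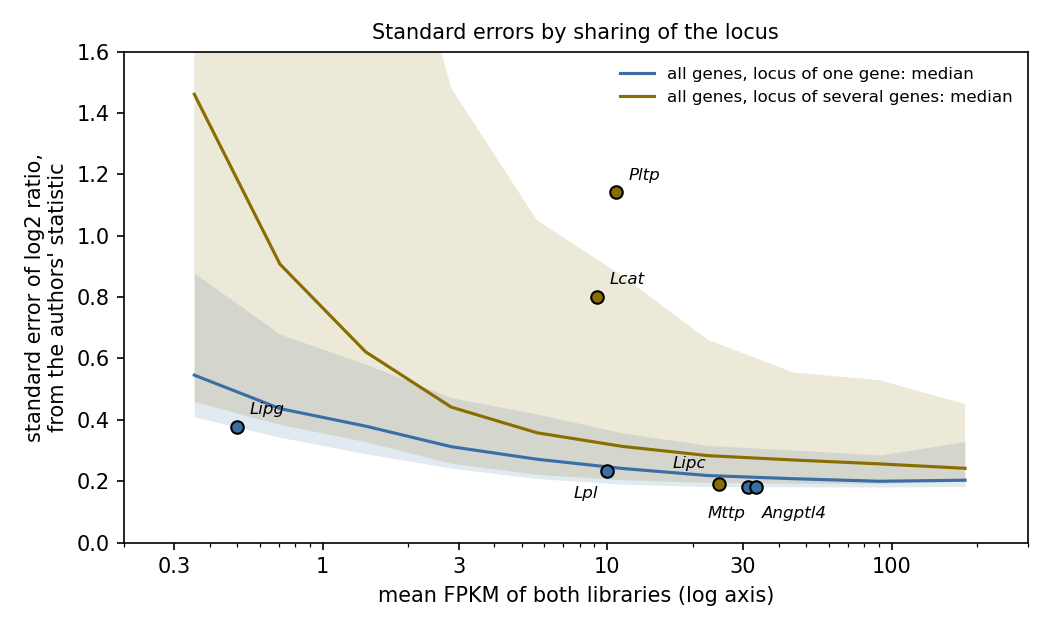
Standard error of the log2 ratio (vertical axis), derived from the authors' test statistic, against the mean FPKM of both libraries (log axis); points are the 7 genes, lines are medians over all genes the authors tested and bands run from percentile 10 to percentile 90. The vertical axis stops at 1.6, under the top of the band for low genes at shared loci. Pltp at 1.14 and Lcat at 0.80 lie far above Mttp, Angptl4 and Lipc, which lie near 0.2.

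The errors behind the authors' test also stood apart for these 2 genes. The standard error of the log2 ratio without a pseudocount, taken as that ratio over the authors' statistic, was 1.14 for Pltp and 0.80 for Lcat. It was 0.18 for Mttp and Angptl4, 0.19 for Lipc, 0.23 for Lpl and 0.38 for Lipg. Among genes with a mean FPKM of 5 to 50, a standard error of at least 0.8 occurred in 9.53% of 2822 genes at shared loci and in 0.252% of 3967 genes at loci of their own. With 1 library per group, the lack of a call does not show for any member that its RNA did not differ, least of all for Pltp and Lcat. Lipc shares its locus too, with Gm3436 at 0.0180 and 0.0290 FPKM and with CT025701.1, listed at 0 in both libraries.

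The other HDL genes were mostly near 0, apart from 2 exporters. Of 10 genes at the minimum 2 passed 1.5-fold upward and 0 downward, with a median of 0.03. Those 2 were the sterol exporters Abca1, at 14.6 FPKM in DMSO and 81.1 in GW3965 (2.40), and Abcg1, with 3.28 and 16.3 (2.01). The apolipoprotein genes Apoa4 (0.25) and Apoa2 (-0.16) came next in size. Pla2g15, the lysosomal relative of Lcat, had 9.78 and 9.66 FPKM (-0.02), and Lbp, a relative of Pltp that binds lipopolysaccharide, had 19.4 and 21.6 (0.15). Bpi, another relative of Pltp, was listed at 0 in both libraries.

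Angptl4 stood almost level between the libraries. Angptl4 (ENSMUSG00000002289, chromosome 17, 33910702 to 33918520, mm9) had 34.4 FPKM in DMSO and 32.2 in GW3965, with DMSO 1.07-fold higher (1.03 to 1.10), a ratio of -0.09. The authors' deposited table gives p = 0.600. It had by far the highest level of its family.

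Angptl8, listed under its older symbol Gm6484 and matched by gene identifier, had 16.2 FPKM in DMSO and 13.2 in GW3965. Its ratio was -0.28, with a standard error of 0.38 from the authors' statistic.

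Angptl6, Angptl2, Angptl7 and Angptl1 were low. Angptl6 stood at 2.70 FPKM in DMSO and at 2.60 in GW3965 (-0.04), and Angptl2 had 1.30 and 1.34 (0.02). Angptl7 was at 0.126 and 0.0445, and Angptl1 was listed at 0 in DMSO and at 0.0107 in GW3965. Of the 5 family genes at the minimum, 0 passed 1.5-fold, and their median was -0.04.

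Genes known to share regulators with Angptl4 had values in different directions, and that of Angptl4 was near 0. Of 11 PPAR targets at the minimum, 3 passed 1.5-fold downward and 0 upward in GW3965, with a median of -0.05. Among these 3, Vnn1, a pantetheinase, stood at 20.3 FPKM in DMSO and at 12.2 in GW3965 (-0.69) and Cpt1a, which passes fatty acids into mitochondria, at 19.6 and 12.2 (-0.65). Creb3l3, a liver transcription factor of lipid metabolism, stood at -0.57 and missed the threshold. Plin2, the lipid droplet coat protein, was at 0.29 and Pdk4, a kinase of pyruvate dehydrogenase, at 0.08.

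Hypoxia targets lay on the other side. All 7 at the minimum had a ratio above 0, 2 of them past 1.5-fold, and the median was 0.47. Ankrd37 had 2.96 FPKM in DMSO and 5.93 in GW3965 (0.81), Vegfa, an endothelial growth factor, had 35.9 and 61.7 (0.76), Bnip3 stood at 0.52 and the glucose carrier Slc2a1 at 0.47. The authors' test failed for Vegfa and made 0 calls among these 7. Car9, under the minimum, went the other way with 0.775 and 0.264 FPKM. Glucocorticoid targets, relevant because both cultures held dexamethasone, had a median of -0.05 over 6 genes, with 0 past 1.5-fold. Zbtb16 stood at -0.31, Dusp1 at -0.20, Tsc22d3 at 0.14 and Sgk1 at -0.06. Tat, an enzyme of tyrosine breakdown just under the minimum, differed most in this list, with 0.962 FPKM in DMSO and 0.447 in GW3965, 2.15-fold lower without a pseudocount.

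**Figure D4:**
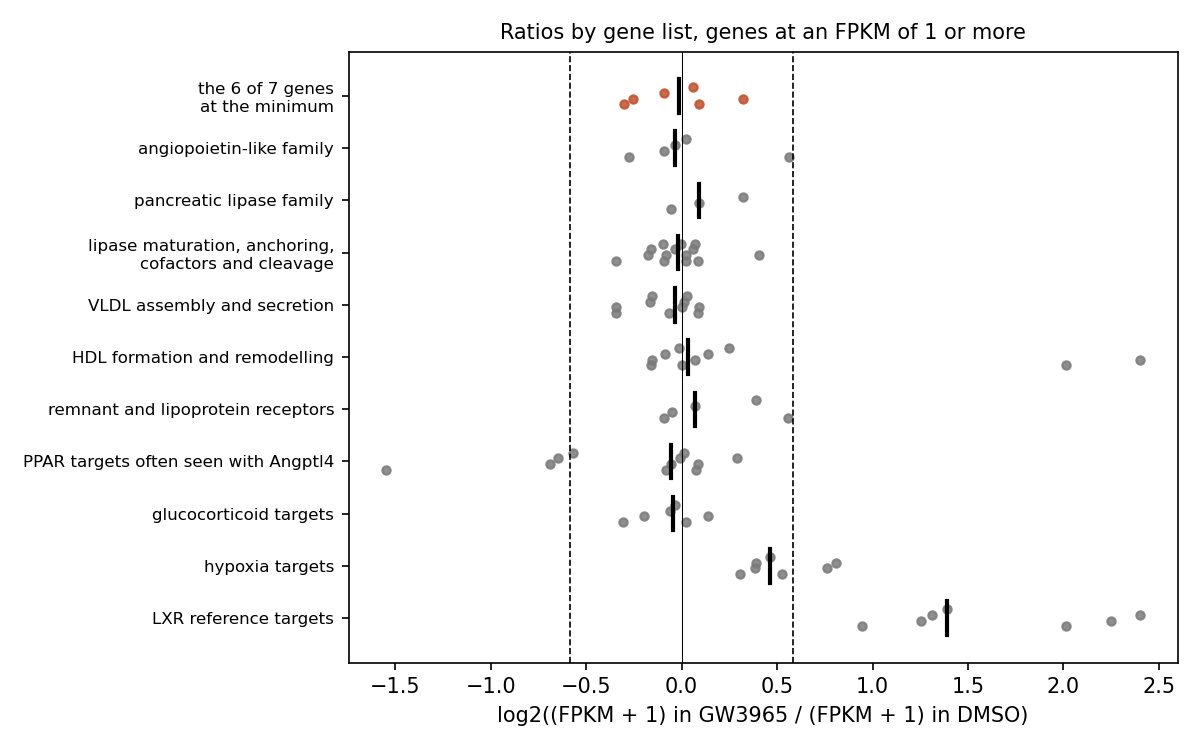
Log2 ratio of GW3965 to DMSO (horizontal axis) of each gene at the minimum, by gene list; each point is 1 gene, black bars are list medians and dashed lines mark 1.5-fold. The 6 measured members (orange) lie between -0.30 and 0.32, hypoxia targets lie above 0 with a median of 0.47, and the LXR reference targets start at 0.95.

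The genes whose proteins fold, anchor, activate or cut LPL had a median ratio near 0, with single genes to either side. Of 14 genes at the minimum, 6 lay above and 8 below 0, and the median was -0.02. Of the 14, 0 passed 1.5-fold, near the background of 2.35% of all genes. Furin, a protease that cleaves LPL, LIPG and the ANGPTL inhibitors, had 68.9 FPKM in DMSO and 91.7 in GW3965 (0.41). Sdc4, a heparan sulfate proteoglycan, had 160 and 125 (-0.34), Apoc1 stood at -0.18 and the protease gene Pcsk6 at -0.16. Gpihbp1, the endothelial anchor of LPL, had 34.2 and 34.7 FPKM (0.02), and Lmf1, the chaperone that LPL and LIPC need to mature, had 28.5 and 28.9 (0.02). The LPL activator Apoc2 had 55.5 and 55.4 FPKM (-0.00), its inhibitor Apoc3 had 478 and 447 (-0.10), and Apoa5, which raises LPL activity, had 3.51 and 3.26 (-0.08).

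Receptors that take up remnants had a median of 0.07 over 5 genes, and 0 passed 1.5-fold. Vldlr, a receptor of triglyceride-rich particles, had 2.94 FPKM in DMSO and 4.16 in GW3965 (0.39). Lsr stood at 0.07 and the proteoglycan gene Sdc1 at -0.09. Lipases that act inside the cell had a median of -0.06 over 7 genes, of which 1 was at least 1.5-fold higher. That gene, Pnpla3, a lipid droplet hydrolase, had 0.360 and 1.35 FPKM (0.79), and the authors' deposited table called it with q = 1.76e-05. Lipe, the hormone-sensitive lipase, stood at 0.26, Lipa, the lysosomal acid lipase, at -0.13 and Aadac at -0.13.

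LXR reference targets give a scale for differences in the same libraries. These 7 genes were chosen with their values known, so their direction is no finding. Their ratios ran from 0.95 for Mylip to 2.40 for Abca1, with Scd1 at 2.25 and Srebf1 at 1.39 and a median of 1.39. Lpl, the highest of the lipase and transfer genes, stood at 0.32, and Pltp at 0.06. Nr1h3, which encodes LXRα, stood at -0.29, and Nr1h2, which encodes LXRβ, at 0.04. Among the other factors that act on these genes Foxo1 stood at 0.27 and Ppard at 0.20.

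Within 50 kb of a member lay 42 other genes, none of them near Lpl, and 25 of the 42 reached the minimum. Of these 25, 0 passed 1.5-fold, against 2.35% of all genes at the minimum. That count is near the background and says nothing particular about these loci. The ratios of the 25 ran from -0.50 for Gm11458, near Pltp, to 0.37 for 1110002E22Rik, near Mttp.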

How the data were processed

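Sequencing libraries came from total RNA and a TruSeq RNA kit, per the labels' protocols, with 1 library per group. The authors' tools were Cuffdiff, Cufflinks 2.0.2, TopHat2 2.0.6 and CASAVA, on mm9 and NCBIM37, per the submitters' processing notes. Settings and strand handling: not given in the sources used here. Per the file headers, the authors deposited FPKM values, p-values, q-values and a test score per gene.

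The members and gene lists were chosen with earlier results of these data known. Ratios used a pseudocount of 1, a minimum FPKM of 1 in either library and a threshold of 1.5-fold. No test of the conditions was run. The 7 genes marked for too many fragments were left out. The standard error was the log2 FPKM ratio divided by the authors' score.

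Depth came from low values. Among 2565 low genes the most frequent DMSO to GW3965 ratio was 1.24. Of 845 genes with 1 annotated transcript, 198 lay within 0.5% of 1 read at 63.0 × 10⁶ fragments for DMSO, with 155 bases taken from each length. The depth of GW3965 is that value times 1.24. Read estimates used the median length of coding transcripts in GENCODE M21 (GRCm38). Intervals were exact (Clopper-Pearson or Poisson, 95%). Table starts counted from 0, so 1 was added: the span of 58.5% of 19844 single-gene loci then equalled that in GENCODE, and 1.53% did without it.

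Symbols absent from the table were matched by identifier or older symbol. The rule for named genes took all members, both families, up to 4 genes per list with the largest ratios in size, the 3 nearest genes of the highest and lowest member, and genes within 50 kb. Other genes were named for their role, or for a shared locus, after their values were seen. Some genes that the rule would name are not reported here. Alternatives were pseudocounts of 0.1 and 5, no minimum, a minimum of 5, centring, scaling to 1 sum, 2-fold and the authors' calls. The size rule was tested on simulated data, where it missed some 2-fold changes, more of them decreases than increases, because of the pseudocount. Versions were matplotlib 3.10.9, scipy 1.17.1, pandas 2.3.3, numpy 2.4.6 and Python 3.11.15.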

Additional observations from a re-analysis of the deposited data

How the results depend on the processing

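The counts of members at least 1.5-fold higher or lower stayed at 0 under every alternative run, namely both pseudocounts, both minima, centring, scaling, 2-fold and the authors' calls. Under 2-fold, the pseudocount of 5 and the minimum of 5 a count of 0 could not rise, so these runs were no check. Lipg, 1.63-fold higher without a pseudocount, entered the size counts only in the run without a minimum, where the pseudocount of 1 kept its ratio at 0.23. Without a minimum the median of the members was 0.061, because Lipg then enters. All 41 alternative values of single members kept their sign. Of these, 38 stayed within the counting interval of the ratio with 1 added to each FPKM, which is narrower for Lipg than the interval of its plain FPKM ratio, and the exceptions were Lipg, at 0.58 with a pseudocount of 0.1 and 0.062 with 5, and Lpl, at 0.23 with 5. Pseudocounts act by construction on low genes. Over all genes the counts higher and lower were 194 and 320 with a pseudocount of 0.1 and 56 and 56 with 5, and 82 were lower at a minimum of 5. PPAR targets past 1.5-fold lower were 1 with a pseudocount of 5, and their median at a minimum of 5 was -0.61. Hypoxia targets past 1.5-fold were 1 with a pseudocount of 5, and 0 intracellular lipases passed with it. No paired analysis was possible because DMSO and GW3965 were each sequenced once. Depth limits Lipg and the genes under an FPKM of 1, and for Pltp the reads over the overlap with Ctsa add an uncertainty that the counting interval leaves out.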
